A study of Mus musculus with 26 samples.

Results

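MHC class I presentation was followed in 3 murine EML4-ALK lung cancer lines through 10 genes chosen by name: B2m, H2-K1, H2-D1, Tap1, Tap2, Tapbp, Nlrc5, Psmb8, Psmb9 and Erap1. All 10 were among the 55391 genes of the deposited count table. Of these, 8 passed a filter on low counts and were among the 14264 genes tested, whereas Psmb8 and Psmb9 did not and are given as counts. EA1, EA2 and EA3 carry an Eml4-Alk fusion and came from C57BL/6 mice, wild type for Trp53 in EA1 and Trp53 null in EA2 and EA3. EA1 and EA3 were grown out of lung tumors that adenoviral Cas9 with guides to Eml4 and Alk had induced, and EA2 was a gift from another laboratory. Each line stands for 1 isolate, so that line, Trp53 status and origin cannot be told apart. Cells received 100 nM alectinib, an inhibitor of the ALK kinase, or its solvent DMSO at 0.1%. Polyadenylated RNA was sequenced on days 1, 2, 3 and 5, with 1 library per line, treatment and day, which gives 24 libraries. The 4 days are therefore the replicates of a line and treatment. The labels do not say whether the days were separate cultures, and p-values measure the spread between these libraries only.

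MHC class I molecules carry peptides from inside the cell to its surface, where CD8 T cells read them. A heavy chain, here H2-K1 or H2-D1, pairs with the light chain B2m. Psmb8 and Psmb9 are catalytic subunits of the immunoproteasome, which cuts proteins to peptides, and Tap1 and Tap2 form the transporter that moves peptides into the endoplasmic reticulum. Tapbp (tapasin) holds empty class I molecules at the transporter while peptides are loaded, and Erap1 trims peptides to length. Nlrc5 is a coactivator that binds class I promoters together with RFX, CREB/ATF and NF-Y factors. Interferon gamma is the best known inducer of the whole set, and tumor cells often express it at low levels.

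In GENCODE vM21 coordinates on GRCm38, the assembly that mm10 names, B2m lies on chromosome 2 (122147686 to 122153083, plus strand). The MHC region of chromosome 17 holds Tapbp (33915899 to 33929292), H2-K1 (33996017 to 34000347), Psmb9 (34181987 to 34187764), Tap1 (34187553 to 34197225), Psmb8 (34197721 to 34201454), Tap2 (34203527 to 34216321) and H2-D1 (35262730 to 35267499). Nlrc5 lies on chromosome 8 (94434356 to 94527272) and Erap1 on chromosome 13 (74639568 to 74693201). Counts sum reads over all exons of a gene, UTRs included. Because the strand setting of the counter is not stated, counts are uncertain where exons overlap those of another gene. That holds for 24.9% of the exon bases of Tapbp on the other strand (Gm19412) and 4.11% on its own (Zbtb22), for 18.5% of Tap2, 14.7% of Psmb8, 11.5% of Erap1, 5.79% of Psmb9, 3.87% of Tap1 and 0.918% of Nlrc5. H2-K1 and H2-D1 have close paralogs, and reads that fit several of them may be missing or split.

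Promoter sequences are given because class I promoters share a regulatory module, whose letters can be seen in B2m and in the heavy chains, and because Tapbp was the gene of the 10 that rose with alectinib in each of the 3 lines. RefSeq windows (GRCm38.p6) matched 8 of the 10 genes, not Tap2 or Nlrc5. Each line gives the 200 bases before a RefSeq start, on the strand of the gene. Capitals mark TGACG (core of the X2 box, bound by CREB/ATF), ATTGG or its reverse complement CCAAT (Y box, bound by NF-Y), GGGGATTCC (an NF-kB motif) and GAAA followed after 2 bases by GAAA (core of the interferon-stimulated response element).
B2m, chr2:122147487-122147686, plus strand: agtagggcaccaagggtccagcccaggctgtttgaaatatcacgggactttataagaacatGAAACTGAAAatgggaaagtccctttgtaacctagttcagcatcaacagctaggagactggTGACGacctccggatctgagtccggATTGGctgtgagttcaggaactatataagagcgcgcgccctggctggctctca
H2-K1, chr17:34000348-34000547, minus strand: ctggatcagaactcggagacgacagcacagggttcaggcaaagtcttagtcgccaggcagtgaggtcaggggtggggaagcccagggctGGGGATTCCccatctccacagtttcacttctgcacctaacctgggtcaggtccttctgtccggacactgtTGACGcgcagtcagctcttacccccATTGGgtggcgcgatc
H2-D1, chr17:35262894-35263093, plus strand: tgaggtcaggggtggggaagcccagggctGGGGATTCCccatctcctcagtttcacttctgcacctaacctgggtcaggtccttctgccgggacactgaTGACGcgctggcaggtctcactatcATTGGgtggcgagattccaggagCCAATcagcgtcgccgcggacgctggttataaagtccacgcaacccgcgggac
Tapbp, chr17:33919278-33919477, plus strand: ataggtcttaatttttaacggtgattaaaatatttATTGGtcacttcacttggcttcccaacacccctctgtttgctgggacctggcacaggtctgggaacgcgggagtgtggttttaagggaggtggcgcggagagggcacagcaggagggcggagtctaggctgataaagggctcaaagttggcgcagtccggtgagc
B2m, H2-K1 and H2-D1 each held TGACG followed after 20 bases by ATTGG, an arrangement found on either strand in 30 of 32851 RefSeq windows of 250 bases before a start (0.0913%). H2-K1 and H2-D1 also held GGGGATTCC, as did 0.213% of windows, and B2m held the exact response element core, as did 2.98%. Matches had to be exact. A window without marked letters, as for this core in H2-K1 and H2-D1, may therefore still hold a variant of the element. From GGGGATTCC to the H2-K1 start, 98 of 111 bases (88.3%) were the same in H2-D1. Of these motifs, the Tapbp window held ATTGG, which was in 33.8% of windows, and TGACG was in 17.8%. The motif TTCNNNGAA (gamma-activated site) was in Psmb8 among the 8 genes and in 7.02% of windows. These matches describe letters and not bound sites.

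Library totals ran from 5780062 to 11732401 counts (median 9252878), so that 3 counts, taken as the floor of detection, equal 0.256 to 0.519 CPM, the usual unit of a gene's count scaled to the size of its library. Intervals on counts cover counting error only. The keratins Krt8, Krt18 and Krt19 and the cadherin Cdh1 were counted in all 24 libraries, as an epithelial label requires, whereas Epcam was at 0 in 4 libraries, those of EA2 with alectinib, and Cldn4 in 12. Of 10 leukocyte markers, 9 had at most 10 counts in any library. The exception was Csf1r, at 0.362 to 6.79 CPM in EA3 and 0 in EA1. Another 2 libraries, labelled EA3 day 7, correlated with EA2 at 0.942 to 0.988 and with EA3 at 0.852 to 0.889 (Pearson, log2 CPM) and were left out of the values below.

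Levels can be compared between genes only per length. Per kilobase of exon, B2m had the highest level of the 10 genes in each line and treatment, with 143 ± 34.4 CPM in EA1, 277 ± 60.5 in EA2 and 262 ± 164 in EA3 in DMSO (mean ± SD, n = 4 days, as for all levels that follow). H2-D1 came next, at 55.5 ± 12.6, 24.1 ± 3.73 and 83.5 ± 43.1 CPM per kilobase, which in EA2 differed from Tapbp by less than the SD. H2-K1 was at 20.5 ± 16.8, 8.69 ± 3.997 and 69.3 ± 56.8, which in EA3 differed from H2-D1 by less than the SD. Tapbp was at 12.1 ± 3.99, 22.9 ± 2.78 and 27.9 ± 9.92 and Erap1 at 2.66 ± 0.973, 3.56 ± 1.10 and 2.34 ± 0.788. The transporter, the immunoproteasome and Nlrc5 lay lower still, the highest of their DMSO means being 1.33 ± 0.974 for Tap2 in EA1.

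**Figure D1:**
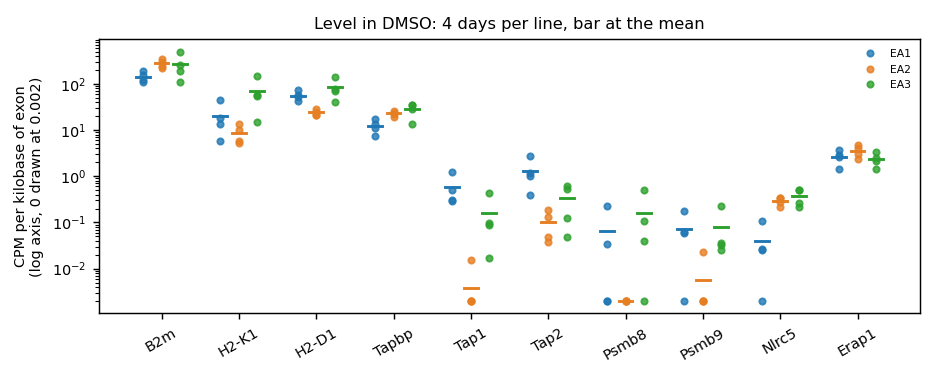
Level of the 10 genes in DMSO, in CPM per kilobase of exon on a log axis, with 1 point per day and a bar at the mean of the 4 days for EA1, EA2 and EA3 (0 is drawn at 0.002). B2m is at the top in each line, and Tap1, Psmb8 and Psmb9 in EA2 are at or next to 0.

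EA2 had almost no reads from the linked genes Tap1, Psmb8 and Psmb9. Tap1 had 0, 0, 0 and 1 counts in the EA2 DMSO libraries of days 1, 2, 3 and 5 and 0, 0, 2 and 0 with alectinib. In EA1 it had 26, 14, 15 and 52 counts in DMSO and 28, 36, 52 and 90 with alectinib, and in EA3 1, 4, 4 and 14 and then 2, 3, 7 and 22. Each EA1 library thus lay above each EA2 library, while the EA3 libraries of day 1 held no more counts than the highest EA2 library of the same treatment. Over the 4 DMSO libraries, the EA1 level was 107 times that of EA2 (95% exact interval 18.8 to 4269, 107 against 1 counts, and at least 16.9 times without day 5), and the EA3 level was 0.235 times that of EA1 (0.143 to 0.371). Psmb8 had 0 counts in all 8 EA2 libraries. The floor for the 4 EA2 DMSO libraries together is 0.0796 CPM, so that Psmb8 in DMSO was at least 2.34-fold higher in EA1 (0, 1, 0 and 6 counts) and at least 5.10-fold higher in EA3 (0, 3, 1 and 10 counts). Most of these counts came from day 5, without which EA1 held 1 count, under the floor, and EA3 was at least 1.27-fold higher. Psmb9 had 1 count in the 8 EA2 libraries, against 2, 2, 0 and 5 in EA1 and 1, 1, 1 and 5 in EA3 in DMSO. Few reads supported Psmb8 and Psmb9 in any line, and a difference between EA1 and EA3 was not detectable at this depth in DMSO (ratio EA3 to EA1 2.18, exact interval 0.824 to 6.39, for Psmb8 and 0.970, 0.326 to 2.83, for Psmb9). Without day 5, that Psmb8 ratio was 4.15 (0.411 to 204.5, 4 against 1 counts). With alectinib, Psmb8 in EA3 was at 3.43 times its EA1 level (1.85 to 6.76, 46 against 14 counts), and without day 5 at 1.81 times (0.719 to 4.92, 15 against 8 counts).

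Tap2 was also highest in EA1, and Nlrc5 was lowest there. Tap2 had 1.502, 3.88, 4.49 and 10.2 CPM on days 1, 2, 3 and 5 in EA1 DMSO. The same days gave 0.180, 0.146, 0.700 and 0.503 CPM for EA2, and for EA3 they gave 0.182, 0.483, 1.99 and 2.33. All EA2 values lay below those of EA1. The log2 difference was -3.65 (SE 0.51, edgeR adjusted p = 0.000107) for EA2 against EA1 and -2.18 (SE 0.45, edgeR adjusted p = 0.00258) for EA3 against EA1. Tap1 passed in these comparisons too (edgeR adjusted p = 4.41e-05 and 0.00856). For EA3 against EA1, the Tap1 call was lost without day 1 (0.0502) and without day 5 (0.0506), and without the day block the calls of Tap1 (0.0860) and Tap2 (0.0643) were lost. EA3 was above EA2 in Tap1 (edgeR adjusted p = 0.00261, and 0.0592 without day 5) and in Tap2 (log2 difference 1.47, SE 0.54, edgeR adjusted p = 0.0482). That Tap2 call was lost in DESeq2 (0.0607), with library size alone (0.0743), with no filter (0.0529), without the day block (0.187) and whichever day was left out (0.0504 to 0.285). Nlrc5, the coactivator, had 2, 2, 8 and 0 counts in EA1 DMSO, 26, 20, 18 and 34 in EA2 and 20, 35, 17 and 26 in EA3. Its level over the 4 libraries was 8.16 times higher in EA2 (95% exact interval 4.47 to 16.3) and 8.91 times higher in EA3 (4.88 to 17.8) than in EA1. Of the 12 EA1 counts, 8 came from day 3, and without that day the log2 differences went from 2.83 to 4.03 and from 3.11 to 4.29. Both differences passed (edgeR adjusted p = 0.00487 and 0.00342), and EA2 and EA3 differed by 0.28 on the log2 scale (95% interval -0.88 to 1.43). The line with the most Tap1 and Tap2 reads thus had the fewest Nlrc5 reads.

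**Figure D2:**
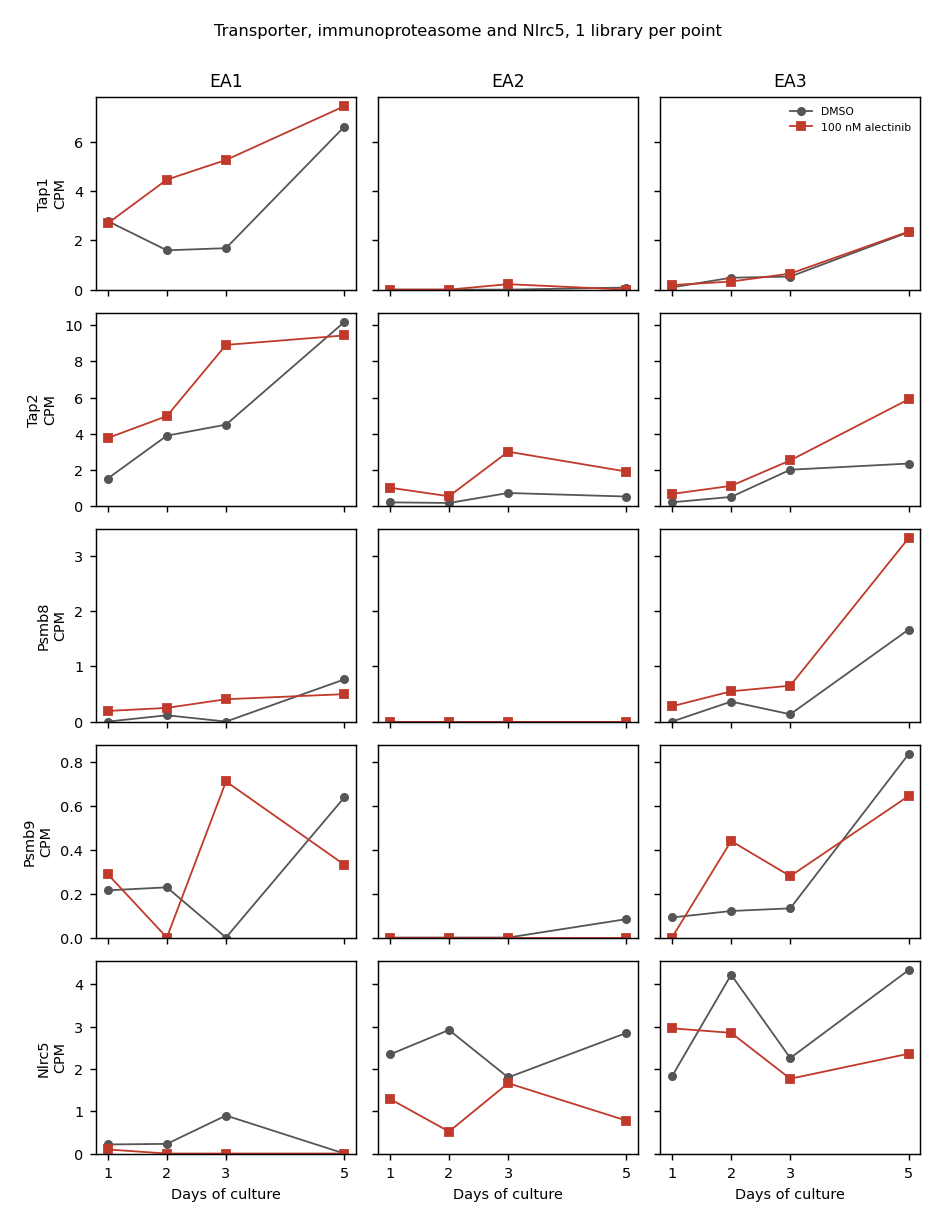
CPM of Tap1, Tap2, Psmb8, Psmb9 and Nlrc5 over days 1, 2, 3 and 5 in EA1, EA2 and EA3 with DMSO or 100 nM alectinib, 1 library per point, linear axis from 0 shared by the lines. Tap1, Psmb8 and Psmb9 stay at or near 0 in EA2, and Nlrc5 stays near 0 in EA1.

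H2-D1 was lowest in EA2, and the light chain B2m was not. H2-K1 in DMSO ran from 16.8 to 131 CPM in EA1 (median of the 4 days 46.8), from 15.4 to 40.3 in EA2 (23.2) and from 44.2 to 438 in EA3 (166). H2-D1 ran from 107 to 186 CPM in EA1, from 54.6 to 75.3 in EA2 and from 105 to 369 in EA3. All EA2 values of H2-D1 lay below those of both other lines. Against EA2, H2-K1 was higher in EA3 by 2.62 on the log2 scale (SE 0.33, edgeR adjusted p = 6.33e-05) and H2-D1 by 1.66 (SE 0.22, edgeR adjusted p = 9.64e-05). H2-D1 was 1.16 lower in EA2 than in EA1 (log2 difference -1.16, SE 0.22, edgeR adjusted p = 0.00110). H2-K1 was called lower in EA2 than in EA1 as well (log2 difference -0.90, edgeR adjusted p = 0.0376), and this call was lost without day 2, 3 or 5 (edgeR adjusted p up to 0.174), with library size alone (0.0861), with at least 10 counts in every library (0.0624) and without the day block (0.172). B2m was higher in EA2 than in EA1 (log2 difference 0.98, SE 0.26, edgeR adjusted p = 0.0104), and that call was lost without day 3 (0.0618) and without the day block (0.0645). Tapbp was higher in EA2 (0.94, SE 0.27, edgeR adjusted p = 0.0162) and EA3 (1.15, SE 0.28, edgeR adjusted p = 0.00697) than in EA1, of which the first was lost without day 3 (0.0511) and without day 5 (0.0507). Erap1 was lower in EA3 than in EA2 by a margin that did not survive leaving out day 1, 2 or 5 or the day block (log2 difference -0.64, edgeR adjusted p = 0.0395 with all days).

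Across the 3 lines in DMSO, 7 of the 8 genes tested differed (edgeR, 2 degrees of freedom), against 54.9% of all genes. Erap1 was the exception (edgeR adjusted p = 0.0569), and it passed with DESeq2 (0.0420), with library size alone (0.0207), with at least 10 counts in every library (0.0461) and without day 3 (0.0143). The B2m call was lost without day 3 (0.0765) and without the day block (0.0925). By pairs, 3 were higher and 4 lower in EA2 than in EA1 (20.3% and 19.7% of all genes), 3 were higher and 2 lower in EA3 than in EA1 (16.3% and 14.9%), and 4 were higher and 1 lower in EA3 than in EA2 (18.5% and 17.4%), and 2 to 3 higher and 0 to 1 lower when 1 day was left out. These comparisons share the libraries of each line. With library size alone, the higher share of all calls went from 50.7% to 64.7% for EA2 against EA1 and from 51.6% to 39.1% for EA3 against EA2. The sum of the 6 epithelial markers also differed between lines, at 4750 to 9117 CPM in EA1, 1821 to 2687 in EA2 and 4819 to 6921 in EA3 in DMSO, and its part in these differences was not tested.

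Alectinib raised Tapbp in all 3 lines. Tapbp was at 39.9, 61.5, 27.0 and 47.9 CPM on days 1, 2, 3 and 5 in EA1 DMSO and at 113, 117, 125 and 143 with alectinib. In EA2 it went from 80.3, 70.4, 94.2 and 86.9 CPM to 211, 198, 198 and 138, and in EA3 from 50.0, 102, 123 and 129 to 229, 263, 194 and 302. The treated libraries lay above all DMSO libraries of their line. EA1 gave a log2 fold change of 1.58 (SE 0.25, 95% interval 1.06 to 2.11, edgeR adjusted p = 0.000399), which is 3.00-fold. EA2 gave 1.16 (SE 0.24, 0.64 to 1.67, edgeR adjusted p = 0.00344), which is 2.23-fold, and EA3 gave 1.39 (SE 0.24, 0.86 to 1.91, edgeR adjusted p = 0.000926), which is 2.61-fold. All alternatives kept these 3 calls.

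B2m rose in EA1 and EA3. It was at 104, 135, 95.1 and 159 CPM on the 4 days in EA1 DMSO and at 227, 252, 241 and 241 with alectinib, with no overlap. In EA3 it was at 96.1, 224, 159 and 423 CPM in DMSO and at 246, 390.3, 291 and 453 with alectinib, higher on each day but overlapping as groups. In EA2 it was at 186, 206, 301 and 259 CPM in DMSO and at 273, 329, 310.1 and 243 with alectinib. The log2 fold changes were 1.03 (SE 0.20), 0.81 (SE 0.20) and 0.30 (SE 0.20) in EA1, EA3 and EA2, and the EA2 interval was -0.13 to 0.72. In EA3, the call (edgeR adjusted p = 0.00764) was lost without day 1 (0.0616), without day 2 (0.0506) and without the day block (0.114). Treated B2m levels lay closer together over the 4 days than DMSO levels did in EA1, with an SD of 10.2 CPM against 29.5.

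The trimming peptidase Erap1 and the transporter subunit Tap2 rose in some lines. In EA3, Erap1 was at 24.4, 15.6, 17.7 and 10.5 CPM in DMSO and at 37.2, 45.4, 26.1 and 35.0 with alectinib, without overlap (log2 fold change 1.13, SE 0.23, edgeR adjusted p = 0.00249). In EA1 it was at 27.5, 21.0, 18.7 and 10.3 CPM in DMSO and at 30.4, 31.2, 25.1 and 26.8 with alectinib (0.66, SE 0.23, edgeR adjusted p = 0.0393). That call was lost whichever day was left out, with edgeR adjusted p between 0.0554 and 0.205, with no filter on low counts (0.0644), without the day block (0.0994), with all 26 libraries (0.127) and with each line alone (0.0769). In EA2, Erap1 had a log2 fold change of -0.03 (95% interval -0.51 to 0.46). Tap2 in EA2 was at 0.180, 0.146, 0.700 and 0.503 CPM in DMSO and at 0.994, 0.519, 2.99 and 1.89 with alectinib, from 16 and 57 counts in all (log2 fold change 2.04, SE 0.41, edgeR adjusted p = 0.00270, and 0.0944 without the day block). In EA3 it was at 0.647, 1.10, 2.51 and 5.90 CPM with alectinib (1.09, SE 0.37, edgeR adjusted p = 0.0362), a call lost without day 1, 2 or 5 (0.113 to 0.162), without the day block (0.284), with no filter (0.154), with each line alone (0.133) and in DESeq2 (0.0696). In EA1, Tap2 was at 3.75, 4.97, 8.92 and 9.44 CPM with alectinib, and its log2 fold change of 0.65 (95% interval -0.03 to 1.33) did not pass.

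**Figure D3:**
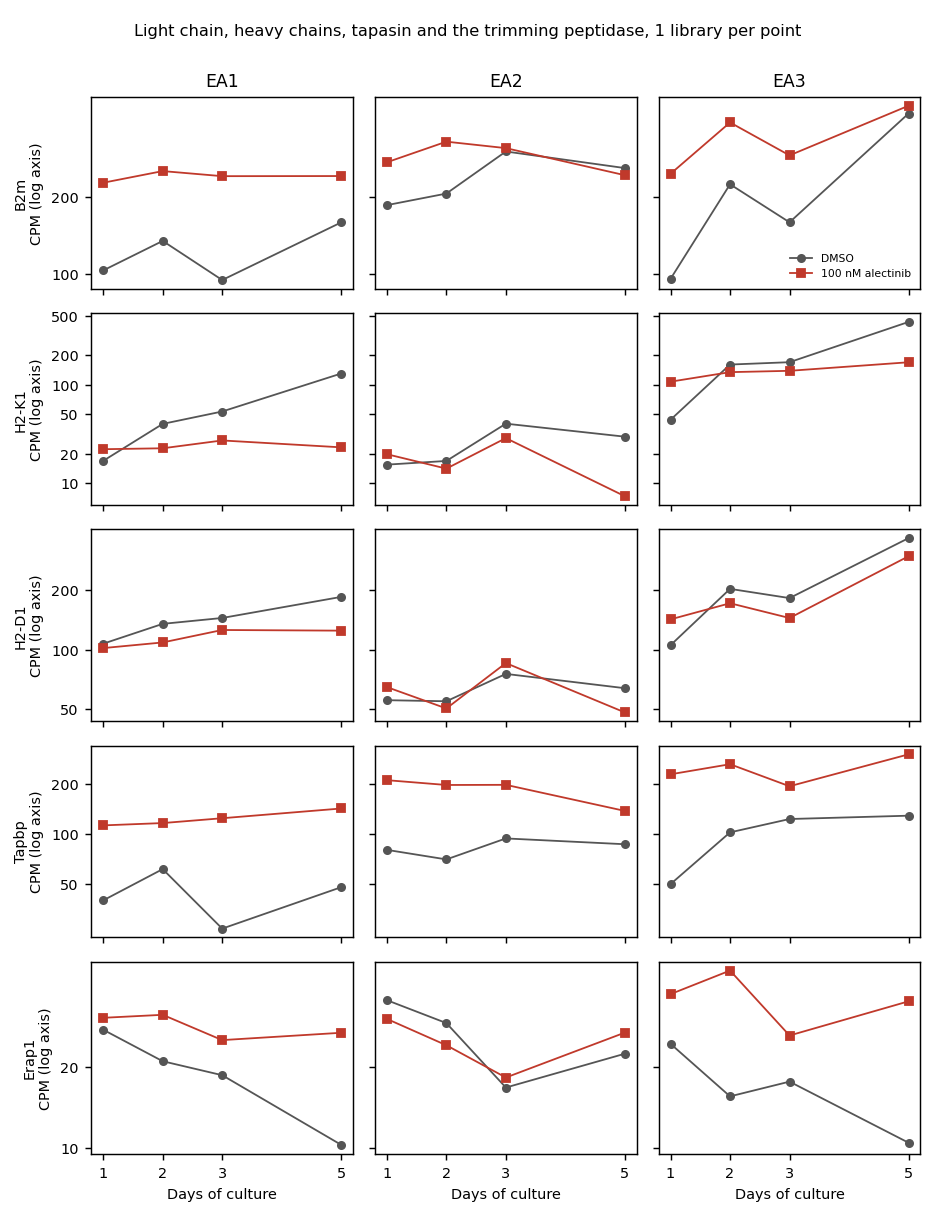
CPM of B2m, H2-K1, H2-D1, Tapbp and Erap1 over days 1, 2, 3 and 5 in EA1, EA2 and EA3 with DMSO or 100 nM alectinib, 1 library per point, on log axes. Tapbp with alectinib lies above DMSO on each day, while the H2-K1 curves cross after day 1 in each line.

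No heavy chain passed the test of the mean effect. For H2-D1, EA1, EA2 and EA3 gave mean log2 ratios of -0.25, -0.03 and -0.08, with 95% intervals from -0.59 to 0.09, from -0.37 to 0.31 and from -0.42 to 0.25. With library size alone as scaling, the EA3 value turned to 0.032. H2-K1 had -0.95, -0.58 and -0.14, with wide intervals (-2.002 to 0.11, -1.63 to 0.48 and -1.16 to 0.88). H2-K1 was called lower in EA1 without day 1 (-1.46, edgeR adjusted p = 0.0226) and with no filter on low counts (-1.01, edgeR adjusted p = 5.44e-05), and without day 5 its value in EA3 turned to 0.26.

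By day, H2-K1 with alectinib was first above and then below DMSO. In EA1 it was at 16.8, 40.1, 53.6 and 131 CPM on days 1, 2, 3 and 5 in DMSO and at 22.1, 22.6, 27.2 and 23.1 with alectinib. In EA2 it was at 15.4, 16.8, 40.3 and 29.7 CPM in DMSO and at 19.7, 14.0, 28.7 and 7.34 with alectinib. In EA3 it was at 44.2, 161, 170.5 and 438 CPM in DMSO and at 108, 135, 139 and 170.2 with alectinib. Alectinib was thus above DMSO on day 1 and below it on days 2, 3 and 5 in each line. The log2 ratio of the libraries of a day went from 0.39 to -2.49 between days 1 and 5 in EA1, from 0.35 to -1.98 in EA2 and from 1.29 to -1.36 in EA3. H2-D1, whose protein has the same role, went from -0.07 to -0.57, from 0.22 to -0.41 and from 0.44 to -0.31.

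Per doubling of days, the H2-K1 effect had a slope of -1.18 (SE 0.22) in EA1, -0.95 (SE 0.23) in EA2 and -1.08 (SE 0.21) in EA3. None of these passed in edgeR after adjustment over all genes (adjusted p = 0.129, 0.436 and 0.0893, from unadjusted p of 0.000243, 0.00157 and 0.000383). With edgeR, 0.0210%, 0% and 0.0491% of all genes passed in EA1, EA2 and EA3. DESeq2 called H2-K1 in each line (adjusted p = 0.000264, 0.0278 and 0.000388). A slope shared by the lines, a fit chosen after seeing the data, was -1.07 for H2-K1 (SE 0.12, 95% interval -1.33 to -0.82, edgeR adjusted p = 0.00717). It was the 1 gene of the 8 called lower in that fit, against 2.41% of all genes, and the call was lost without day 1 (0.386) and without day 5 (0.238). B2m and H2-D1 had shared slopes of -0.33 (SE 0.10) and -0.25 (SE 0.08) that passed in DESeq2 (adjusted p = 0.0122 and 0.0239) and not in edgeR (0.0812 and 0.106). In the same fit edgeR called 0 of the 8 higher (1.65% of all genes), 1 was higher at an unadjusted p under 0.05, and DESeq2 called 0.

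**Figure D4:**
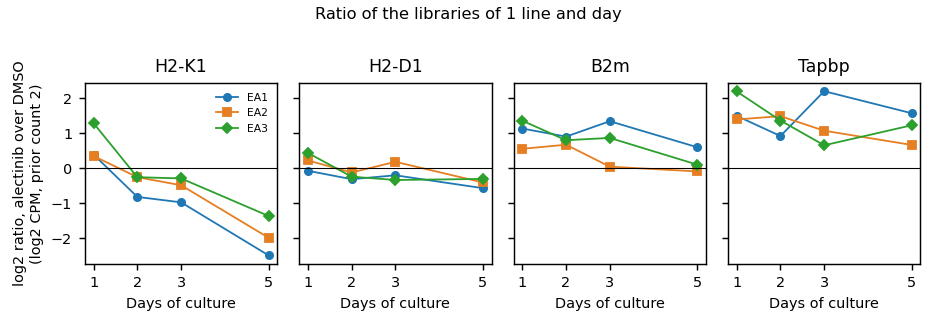
log2 ratio of alectinib to DMSO (log2 CPM, prior count 2) between the 2 libraries of a line and day, over days 1, 2, 3 and 5, for H2-K1, H2-D1, B2m and Tapbp in EA1, EA2 and EA3. The H2-K1 ratio is above 0 on day 1 and falls to between -2.49 and -1.36 on day 5, and the Tapbp ratio stays above 0 throughout.

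The change of the H2-K1 ratio went with a rise in DMSO cultures. In the 12 DMSO libraries, with a slope shared by the lines, H2-K1 rose by 1.07 on the log2 scale per doubling of days (SE 0.15, edgeR adjusted p = 0.00620). From day 1 to day 5 this came to 7.76-fold in EA1, 1.93-fold in EA2 and 9.93-fold in EA3. Tap2 (1.21, SE 0.23, edgeR adjusted p = 0.00817), B2m (0.44, SE 0.13, 0.0345) and H2-D1 (0.41, SE 0.10, 0.0184) rose too, and Erap1 fell (-0.43, SE 0.10, 0.0149). That is 4 genes higher and 1 lower of 8, against 8.23% and 6.85% of all genes (54.6% of all calls higher, and 40.1% with library size alone). Tap1 had a slope of 0.92 (95% interval 0.26 to 1.58, edgeR adjusted p = 0.0592, and 0.0317 with no filter), which with 1 day left out ran from 0.053 without day 5 (0.965) to 1.747 without day 1 (0.245) and passed without day 3 (0.0419), Tapbp of 0.22 and Nlrc5 of 0.21. Without day 1, no gene of the table passed at all, and H2-K1, Tap2, B2m, H2-D1 and Erap1 then had edgeR adjusted p from 0.194 to 0.422. Without day 2, the calls of B2m (0.0765) and H2-D1 (0.0558) were lost, and without day 5, H2-K1 alone of the 5 kept its call. The B2m call was also lost with library size alone (0.0546).

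In the 12 alectinib libraries, none of the 8 genes passed for days with edgeR (0.196% of all genes were higher and 0.0351% lower), while 2 had an unadjusted p under 0.05 and DESeq2 called the same number. These were Tap1 (slope 1.00, SE 0.30, edgeR adjusted p = 0.181) and Tap2 (0.89, SE 0.22, edgeR adjusted p = 0.107). H2-K1 had 0.05 there (95% interval -0.31 to 0.40) and Tapbp 0.02 (-0.15 to 0.20). Within libraries, H2-K1 reads relative to H2-D1 showed this contrast in part. In each line the ratio in DMSO was higher on day 5 than on day 1, and on day 5 it was lower with alectinib. In EA1 DMSO there were 0.157, 0.296, 0.370 and 0.704 H2-K1 reads per H2-D1 read on the 4 days, and with alectinib 0.217, 0.208, 0.216 and 0.185. In EA3 the values were 0.419, 0.791, 0.932 and 1.19 in DMSO and 0.757, 0.783, 0.961 and 0.570 with alectinib, which lay above DMSO on days 1 and 3. In EA2 they were 0.279, 0.307, 0.535 and 0.466 in DMSO and 0.305, 0.279, 0.336 and 0.153 with alectinib. The ratio in DMSO was thus highest on day 5 in EA1 and EA3 and on day 3 in EA2, and with alectinib day 5 was the lowest in all 3 lines.

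Nlrc5 had lower values with alectinib on each of the 4 days in EA2 and on 3 of the 4 days in EA1 and in EA3. In EA2 it had 26, 20, 18 and 34 counts in DMSO and 13, 3, 15 and 7 with alectinib, without overlap as CPM (2.34, 2.92, 1.80 and 2.85 against 1.29, 0.519, 1.66 and 0.778), and a log2 fold change of -1.23 (SE 0.52, edgeR adjusted p = 0.106). In EA1 it had 12 counts in 4 DMSO libraries and 1 in 4 alectinib libraries, a ratio of 0.0787 (95% exact interval 0.00184 to 0.532). Of the 12, 8 were from day 3, without which the ratio was 0.225 (0.00458 to 2.28). The fit called it lower there (edgeR adjusted p = 0.0384), and the call was lost without day 2, 3 or 5 (0.0578 to 0.300), with all 26 libraries (0.0559) and with each line alone (0.102). In EA3 it had 20, 35, 17 and 26 counts in DMSO and 32, 26, 19 and 22 with alectinib, with overlapping groups. As CPM these were 1.82, 4.23, 2.26 and 4.34 against 2.96, 2.85, 1.77 and 2.36, higher on day 1 and lower on the later days. The log2 fold change was -0.25 (95% interval -1.29 to 0.79). Tap1 passed in no line. In EA1 it was at 2.79, 1.598, 1.69 and 6.62 CPM in DMSO and at 2.69, 4.47, 5.27 and 7.46 with alectinib (log2 fold change 0.82, 95% interval -0.24 to 1.88), and in EA3 the log2 fold change was 0.11 (-1.20 to 1.42). Psmb8 in EA3 had 0, 3, 1 and 10 counts in DMSO and 3, 5, 7 and 31 with alectinib, higher on each day (ratio of the sums 2.97, exact interval 1.604 to 5.85). With 1 day left out, that ratio ran from 2.57 to 3.58. Such ratios use raw library totals and do not pair the days. On day 5, the TMM-scaled CPM of Psmb8 in EA3 was 1.67 in DMSO and 3.32 with alectinib, which is 1.99-fold. Psmb8 in EA1 (ratio 1.89, 0.713 to 5.53) and Psmb9 in EA1 (1.47, 0.592 to 3.85) and EA3 (1.47, 0.564 to 4.09) had ratios whose intervals include 1. Without day 5, the Psmb8 ratio in EA1 was 8.23 (1.10 to 365, 8 against 1 counts), and with 1 day left out that of Psmb9 ran from 0.701 to 2.57 in EA1 and from 1.13 to 2.23 in EA3.

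Of the 8 genes tested, 3 rose and 1 fell with alectinib in EA1, against 19.0% and 14.6% of all genes. In EA2, 2 rose (13.0% of all genes) and 0 fell (11.3%) with edgeR, where 1 was lower at an unadjusted p under 0.05 and DESeq2 called 0. In EA3, 4 rose (17.5%) and 0 fell (15.1%) with edgeR, where 0 were lower at an unadjusted p under 0.05 and DESeq2 called 0. With library size alone as scaling, the higher share of all calls went from 56.6% to 64.6% in EA1, from 53.5% to 48.3% in EA2 and from 53.6% to 64.7% in EA3. The treated and DMSO libraries did not overlap for 2 of the 8 genes in each line, against 31.1% of all genes in EA1, 26.9% in EA2 and 23.5% in EA3. For EA1, EA2 and EA3, the 8 genes had median log2 fold changes of 0.65, 0.13 and 0.46, beside 0.06, 0.00 and 0.07 over all genes tested. The heavy chains, which present the peptide, were not among the genes that rose in any line.

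**Figure D5:**
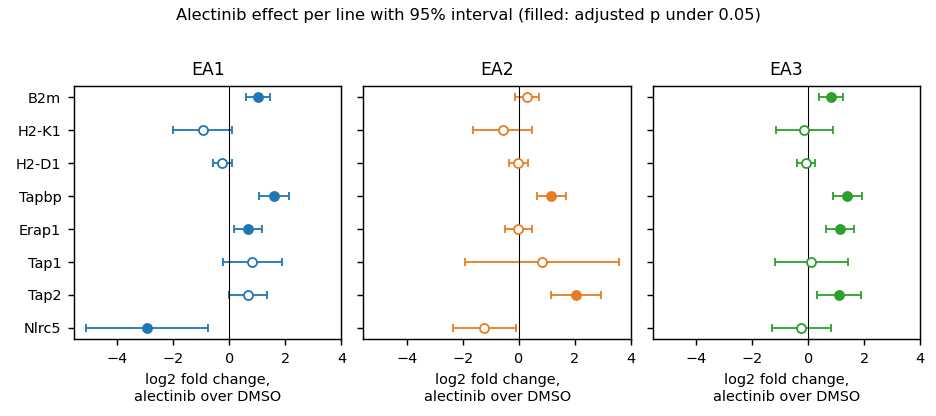
log2 fold change of alectinib over DMSO for the 8 genes tested in EA1, EA2 and EA3, with 95% intervals from the edgeR fit. Filled points passed an adjusted p of 0.05, and Tapbp is filled in all 3 lines while H2-K1 and H2-D1 are open in each.

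The alectinib effect was also compared between the lines. None of the 8 genes passed with edgeR (2 degrees of freedom), against 6.84% of all genes, while 1 had an unadjusted p under 0.05 and DESeq2 called 1. That gene was Erap1 (edgeR adjusted p = 0.0882, DESeq2 adjusted p = 0.0302), whose effect was larger in EA3 than in EA2 by 1.16 on the log2 scale (95% interval 0.47 to 1.85, edgeR adjusted p = 0.0713). For B2m, the effect in EA2 differed from that in EA1 by -0.74 (-1.34 to -0.13, edgeR adjusted p = 0.126), and for Tap2 by 1.39 (0.29 to 2.49, edgeR adjusted p = 0.116). By pairs of lines, edgeR called 0 of the 8 higher or lower. For EA2 against EA1, 1 was higher and 1 lower at an unadjusted p under 0.05 and DESeq2 called 0 (2.26% and 4.19% of all genes called by edgeR). For EA3 against EA1, 1 was higher at that p and DESeq2 called 0 (0.477% and 1.31%), and for EA3 against EA2, 1 was higher and DESeq2 called 1 (1.68% and 1.18%). For Tapbp, the differences between lines ran from -0.43 to 0.23, with intervals within -1.16 and 0.96.

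Class I heavy chains other than H2-K1 and H2-D1, whose roles vary, were also followed. Of 18 listed, 9 were tested, and EA1 had 5 that rose, EA2 had 2 and EA3 had 3, against 19.0%, 13.0% and 17.5% of all genes. The medians of their log2 fold changes were 1.31, 0.43 and 0.79. Fcgrt, the neonatal Fc receptor, rose by 2.32 (SE 0.32) in EA1 and 1.72 (SE 0.32) in EA3. Mr1, which presents vitamin metabolites, rose by 2.67 (SE 0.40) in EA1 and 1.36 (SE 0.35) in EA3, and its effect differed between lines (edgeR adjusted p = 0.0348). Cd1d1, which presents lipids, rose by 3.19 (SE 0.59) and 1.87 (SE 0.59) in the same lines. Hfe, which regulates iron uptake, rose by 1.92 (SE 0.39) in EA1 and 1.61 (SE 0.43) in EA2, and H2-T22 by 0.83 (SE 0.21) and 0.70 (SE 0.21). In DMSO, 5 of the 9 rose with days, among them H2-T23 (1.11 per doubling, SE 0.21, edgeR adjusted p = 0.00817) and H2-Q4 (1.27, SE 0.37, edgeR adjusted p = 0.0333), against 8.23% of all genes. H2-Q4 was at 0 to 0.111 CPM in EA2, next to 0.429 to 2.29 in EA1.

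Of the 5 chaperones of peptide loading, Tapbpl, a tapasin relative that edits the peptides, rose in EA2 (1.18, SE 0.22, edgeR adjusted p = 0.00177) and EA3 (1.30, SE 0.22, edgeR adjusted p = 0.000717). Of 9 other proteasome subunits and activators, 1 rose in EA1 (Psmb10, the third immunoproteasome subunit, 0.73, SE 0.24) and 1 in EA3 (Psme2, an activator subunit, 0.54, SE 0.19), and Psmb10 was well above Psmb8 and Psmb9 in each line, at 10.5 to 39.0 CPM in EA2. Of all genes, 19.0% rose in EA1, 13.0% in EA2 and 17.5% in EA3. Of the 7 peptidases, 2 fell in EA1, 2 fell and 1 rose in EA2, and 3 fell in EA3, where the shares of all genes that fell were 14.6%, 11.3% and 15.1%. Thop1, which destroys peptides in the cytosol, fell in all 3 lines (-0.56, -0.57 and -0.60, SE 0.15 each). Blmh fell in EA2 (-0.47, SE 0.12) and EA3 (-0.92, SE 0.12), and Lap3 in EA1 and EA3 (-0.35 each, SE 0.13). The riser in EA2 was Lnpep, an aminopeptidase of endosomes (0.93, SE 0.23).

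Of 13 genes for interferons, their receptors and signalling, 9 were tested, and 6 rose and 1 fell in EA1, 2 rose and 2 fell in EA2, and 5 rose and 1 fell in EA3. The shares of all genes that rose were 19.0%, 13.0% and 17.5% in the same order of lines, and those that fell 14.6%, 11.3% and 15.1%. Ifngr1, the ligand-binding chain of the interferon gamma receptor, rose by 0.70, 0.70 and 0.72 (SE 0.14 each) and Jak1, its kinase, by 0.92, 0.52 and 0.57 (SE 0.15 each). Socs3, which restrains cytokine signals, fell in all 3 lines (-0.82, -1.62 and -2.34) and Socs1 in EA2 (-2.56, SE 0.41). The alectinib effect differed between lines for 2 of the 9 (6.84% of all genes). It was lower in EA2 than in EA1 for 3 (4.19%) and lower in EA3 than in EA1 for 1 (1.31%). Ifng had 0 counts in all 24 libraries and Ifnb1 at most 1.

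Fibroblast transcripts moved with alectinib as well. The sum of 5 fibroblast markers ran from 1.46 to 5.99 CPM in EA1 DMSO, 56.4 to 71.0 in EA2 and 10.3 to 20.4 in EA3, and from 14.0 to 72.4, 117 to 240.2 and 84.4 to 241 with alectinib. Of the 4 fibroblast markers tested, 3, 2 and 3 rose in EA1, EA2 and EA3 (19.0%, 13.0% and 17.5% of all genes), and Lum was at 0 in 19 of the 24 libraries. With alectinib the epithelial sum was at 3177 to 5350 CPM in EA1, 561 to 1176 in EA2 and 3053 to 7159 in EA3. In EA2 the sum of 4 endothelial markers, of which Tie1 was at 0 throughout, was at 0.173 to 0.887 CPM against 1.98 to 5.70 in DMSO. In EA1 that sum was at 3.48 to 6.49 CPM with alectinib against 1.78 to 3.996 in DMSO, and in EA3 at 1.95 to 5.16 against 1.82 to 9.17. The sum of the 10 leukocyte markers was at most 1.29 CPM in EA1 and EA2 and ran from 0.362 to 3.19 in EA3 DMSO and from 2.57 to 7.44 with alectinib. The part of these markers in the changes above was not tested. In bulk RNA, fewer cells of a type and less RNA per cell cannot be told apart. The genes whose log2 ratio over the 12 line and day pairs was most like the median of the 8 genes were Kcnn3 (Pearson r 0.908), Sgsm3 (0.900), Scd1 (0.877), Agfg2 (0.874) and Tcim (0.872), out of 9921 ranked. The 12 points share 3 lines and their controls, and the ratios of Tcim ran from -6.45 to 0.24, so that a like pattern here is not a like size.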

How the data were processed

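The authors checked reads with FastQC, removed adapters with bbduk, used STAR with mm10, and deposited raw counts per gene from its own counter, with no normalization. The annotation release and the strand setting are not given in the sources used here. Of 55415 rows, 24 named no gene (date numbers, 0.129 to 0.201% of the counts of a library) and were left out.

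The 10 genes and the lists set beside them were chosen with earlier results of these data known. The analysis used edgeR 4.0.16 in R 4.3.3 and Python 3.11.15, with TMM scaling, filterByExpr by line and treatment, and robust quasi-likelihood tests with Benjamini-Hochberg adjustment over all genes tested (threshold 0.05). A single model held the 24 libraries, with a term for each of the 12 pairs of line and day and 1 alectinib term for each line. Lines were compared in the 12 DMSO libraries with day as a block, and slopes on log2 day were fitted within a treatment with a term per line. The block comes from the day in the labels, and the correlation over genes between the deviations of paired libraries ran from -0.300 to 0.549. CPM values are TMM scaled, log2 ratios of 2 libraries add a prior count of 2 to each, and intervals on sums of counts are exact at 95%. Floors and ratios of summed counts use raw library totals, without TMM scaling. Alternatives were DESeq2 1.42.0, its size factors, library size alone, other filters, no block, each line alone, 26 libraries, each day left out, a log2 fold change of at least 1 and a threshold of 0.01. A slope shared by the lines was added after seeing the data. The named genes were the 10, list members past the threshold in at least 2 lines or on which a result turns, and the 5 genes most like the median of the 8 tested. A list of factors that act at class I promoters is not reported here.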

Additional observations from a re-analysis of the deposited data

Results flagged for a closer look

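With 4 days per group, 3 of the 53 groups with more than 3 counts in at least 1 library held a value whose gap to its neighbour was large for the group's range (Dixon's test at 95%), and chance flags about 1 in 20 groups. Psmb8 stood out on day 5 in EA1 DMSO (0.764 CPM, from 6 counts) and in EA3 with alectinib (3.32 CPM, from 31 counts), and Psmb9 on day 5 in EA3 DMSO (0.834 CPM, from 5 counts). Outside the comparisons, the alectinib library labelled EA3 day 7 had 2.81 times the Tap2 level and 3.18 times the Tapbp level of the DMSO library of that label, on 1 library each. H2-K1 was at 0.401 times there, and Nlrc5 at 0.160 times, from 42 counts in DMSO and 10 with alectinib. Those libraries correlated more with EA2 than with EA3 and held 0 counts of Psmb8 and Psmb9.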

How the results depend on the processing

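The 3 Tapbp calls with alectinib were kept under all alternatives run. Requiring 10 counts in every library left 5 of the 8 genes, with 0 lower in EA1, 1 higher in EA2, and in DMSO 1 lower in EA2 against EA1, 0 lower in EA3 against EA1 and 2 higher in EA3 against EA2. Without a filter, 2 were lower in EA1, 1 differed between lines, and 1 had a lower slope over days in EA1 and in EA3. DESeq2 called 1 lower slope in each of EA1, EA2 and EA3, 1 difference between lines, 2 higher slopes in the alectinib libraries and 3 lower shared slopes. With all 26 libraries, or each line alone, 0 were lower in EA1. Without the replicate block, 1 was higher in EA2 and 2 in EA3 with alectinib, and in DMSO 0 were lower in EA3 against EA1 and 0 in EA3 against EA2. The cause was not tested.

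Leaving out each day in turn gave, with alectinib, 2 to 2 genes higher and 0 to 2 lower in EA1, 2 to 2 higher in EA2 and 2 to 4 higher in EA3. For slopes of the effect it gave 0 to 1 lower in EA1 and in EA3, and for the shared slope 0 to 1 higher and 0 to 2 lower. In DMSO it gave 0 to 5 genes rising and 0 to 1 falling with days, 2 to 3 higher and 3 to 4 lower in EA2 against EA1, 3 to 4 higher and 1 to 2 lower in EA3 against EA1, 2 to 3 higher and 0 to 1 lower in EA3 against EA2, and 7 to 7 across the lines. Library size alone moved the median of all genes from 0.07 to 0.18 in EA3 with alectinib and from 0.02 to 0.20 in EA2 against EA1 in DMSO, and turned H2-D1 in EA3 to 0.032. With 1 day left out, these values crossed 0: with alectinib, H2-D1 in EA2 (-0.13 to 0.10), Tap1 in EA2 (-1.70 to 2.69) and EA3 (-0.022 to 0.23), Erap1 in EA2 (-0.13 to 0.042) and H2-K1 in EA3 (-0.62 to 0.26), the B2m effect slope in EA1 (-0.25 to 0.083), the Nlrc5 slope in DMSO (-0.075 to 0.35), and in alectinib the slopes of B2m (-0.031 to 0.15), H2-K1 (-0.059 to 0.25) and Tapbp (-0.011 to 0.035). Depth limits Tap1, Psmb8 and Psmb9 in EA2 and Nlrc5 and Psmb8 in EA1, where most libraries held fewer than 3 counts. It also limits Psmb9 in EA1 and EA3, which had at most 7 and 6 counts in any library.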
